A study of Homo sapiens with 12 samples.

Results

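FGF19, its coreceptor beta-Klotho (gene KLB) and the receptors FGFR2, FGFR3 and FGFR4 were followed in 3 human hepatocellular carcinoma (HCC) cell lines, Hep3B, Huh7 and MHCC97H. The genes were taken by name from the deposited table, and all 5 were found among its 11548 rows. Each cell line was sequenced untreated, with the mTOR kinase inhibitor AZD8055 at 100 nM, with compound #57, an allosteric inhibitor of the phosphatase SHP2, and with the combination, in which compound #57 was given at 5 µM. Each of the 12 conditions had 1 library. The labels give the genotype of all cells as wild type. The dose of compound #57 given alone is not given in the sources used here. Hep3B and Huh7 cells were exposed for 48 h and MHCC97H cells for 24 h, so that in MHCC97H the exposure time cannot be told apart from the line.

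FGF19 is an endocrine growth factor that is normally released by the ileum when bile acids activate the nuclear receptor FXR, and that represses bile acid synthesis in hepatocytes. It binds its receptors weakly unless beta-Klotho is present, and in hepatocytes the pair of FGFR4 and beta-Klotho is its main receptor. In HCC, FGF19 can be made by the tumour cells themselves, often with a gain of its region of chromosome 11, and then acts on the same cells. The receptors are tyrosine kinases that pass their signal through the adaptor FRS2 to SHP2, the RAS-ERK cascade and PI3K, and ERK in turn induces inhibitors of the pathway such as the Sprouty proteins and DUSP6.

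The 12 libraries held between 10659951 and 15957251 reads, of which the table took 98.6% to 99.3%. Values are given as normalised reads, that is reads per 10000000 reads of the library, unless reads are named. This scale was worked out from the deposited values and was not stated in the sources used here. No gene in the table had a mean log2 value under 4.65 over the 12 libraries, so a gene missing from it need not be without reads. The listed hepatocyte and HCC genes were all in the table (17 of 17). Their summed level was between 53985 and 62880 normalised reads in MHCC97H, against 336315 to 710804 in Hep3B and 418560 to 577747 in Huh7. In MHCC97H, transthyretin (TTR) had 3 reads or fewer in every library, and the glypican gene GPC3 had 3 to 6. Of the 5 immune markers, 0 were in the table, and the single endothelial marker in the table, PECAM1, was highest in MHCC97H, at 285 to 542 normalised reads against 4.30 to 55.8 in the other lines. The fibroblast markers in the table (4 of 8) summed to 5068 to 23634 normalised reads in Hep3B, 4332 to 13184 in Huh7 and 326 to 893 in MHCC97H, and the biliary markers (3 of 4) to 6565 to 12401, 3358 to 4292 and 1775 to 3134.

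On hg38 (GENCODE release 44), FGF19 lies at chr11:69698238-69704022 on the minus strand and has 3 exons. KLB lies at chr4:39406930-39451533 on the plus strand with 5 exons. FGFR4 (chr5:177086905-177098144, plus strand), FGFR3 (chr4:1793293-1808872, plus strand) and FGFR2 (chr10:121478332-121598458, minus strand) have 18 exons each in the MANE transcript. The values are sums per gene, so that they do not tell the receptor isoforms apart.

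The promoters of KLB and FGFR4 are shown because the effect of compound #57 on these genes differed between the cell lines. The letters are the 250 bases upstream of the RefSeq start on GRCh38.p14, plus strand, at chr4:39406680-39406929 for KLB and chr5:177086665-177086914 for FGFR4, with motif matches in capitals.
KLB: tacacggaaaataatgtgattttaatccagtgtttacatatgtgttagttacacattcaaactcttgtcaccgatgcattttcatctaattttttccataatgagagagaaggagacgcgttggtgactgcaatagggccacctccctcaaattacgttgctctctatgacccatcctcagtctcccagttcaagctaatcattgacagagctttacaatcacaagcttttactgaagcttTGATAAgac
FGFR4: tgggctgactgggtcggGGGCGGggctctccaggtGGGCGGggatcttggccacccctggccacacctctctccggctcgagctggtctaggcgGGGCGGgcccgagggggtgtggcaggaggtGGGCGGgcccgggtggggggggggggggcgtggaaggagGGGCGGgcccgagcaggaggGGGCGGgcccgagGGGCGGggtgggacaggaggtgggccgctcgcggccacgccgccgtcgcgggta
The KLB promoter is poor in G and C (39.2%, with 5 CpG), and 11.4% of the 35116 promoters in the table had a lower share. The FGFR4 promoter lies near the other end, with 79.6% G and C, 24 CpG and 96.3% of promoters below it. In KLB, the capitals mark a GATA core (TGATAA), whose match begins 9 bases before the start and which 6.66% of promoters hold. In FGFR4, they mark 7 copies of the GC box (GGGCGG), which 42.6% of promoters hold at least once. On both strands, the AP-1 motif TGANTCA (6.57% of promoters), the ETS core CCGGAA (14.5%), the E-box TCACGTGA (0.854%), TATAAA (10.7%) and CCAAT (32%) had no match in either window. A match of letters is a description only.

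The clearest contrast was between cell lines. FGF19 was read in Hep3B and Huh7 and nearly absent from MHCC97H. Hep3B had 98.5 normalised reads of FGF19 untreated, 123 with AZD8055, 108 with compound #57 and 85.1 with the combination. Huh7 had 449, 191, 349 and 162 in the same order, so that its lowest library was above the highest of Hep3B. In MHCC97H, 1 read of FGF19 was found among the 51011355 reads of the 4 libraries, with 0 reads in all but the combination. Taking 3 reads as the limit that a count of 0 allows per library (2.30 normalised reads in untreated MHCC97H), untreated FGF19 was at least 42.7-fold higher in Hep3B and at least 195-fold higher in Huh7.

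FGFR2, a receptor whose gene fusions are known from biliary tumours, was mostly a Hep3B gene. It had 575, 480, 350 and 494 normalised reads in Hep3B (untreated, AZD8055, compound #57 and combination) and 29.5, 36.6, 27.3 and 63.7 in Huh7. All 4 MHCC97H libraries had 0 reads. The untreated level was at least 249-fold higher in Hep3B and at least 12.8-fold higher in Huh7 than that limit.

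KLB was high in the same lines as FGF19 and close to the limit of counting in MHCC97H. Hep3B had 1397 normalised reads untreated, 1391 with AZD8055, 5307 with compound #57 and 3552 with the combination. Huh7 had 2861, 2164, 4658 and 2728. MHCC97H had 11, 6, 36 and 17 reads in the same order, or 8.45, 4.21, 31.6 and 13.8 normalised reads. The levels of Hep3B and Huh7 overlapped, and both lay far above MHCC97H. In all 3 lines the compound #57 library was the highest.

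FGFR4, the main hepatocyte receptor of FGF19, had the highest level per kilobase of transcript of the 5 genes in all 12 libraries. It had 3712, 4357, 3308 and 2835 normalised reads in Hep3B (untreated, AZD8055, compound #57, combination), 5806, 4020, 4887 and 3274 in Huh7 and 466, 310, 614 and 419 in MHCC97H. Untreated was highest in Huh7, AZD8055 in Hep3B and compound #57 in MHCC97H, so that the highest treatment differed between the lines. The combination was lowest in Hep3B and Huh7, and AZD8055 in MHCC97H. FGFR3, a receptor that also pairs with beta-Klotho, had 2426, 3554, 2648 and 2789 in Hep3B, 3100, 4222, 2455 and 3377 in Huh7 and 233, 297, 220 and 176 in MHCC97H. For FGFR3, the AZD8055 library was the highest in every line. FGFR4 and FGFR3 were thus the only ones of the 5 genes with over 100 reads in MHCC97H.

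**Figure D1:**
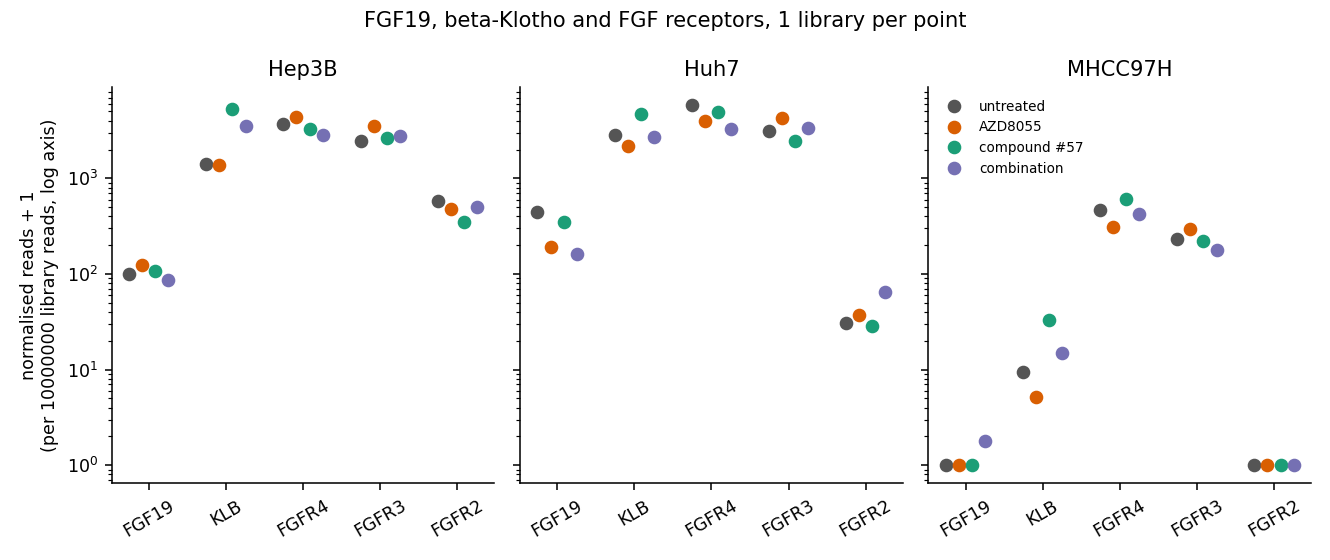
Normalised reads plus 1 (per 10000000 library reads, log axis) of the 5 genes in each cell line, with 1 point per library and colours for the 4 treatments. FGF19, KLB and FGFR2 drop to the bottom of the MHCC97H panel, where FGFR2 has 0 reads in all 4 libraries, while FGFR4 and FGFR3 stay between 176 and 614 normalised reads.

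Per kilobase of transcript, the order in untreated Hep3B cells was FGFR4, FGFR3, KLB, FGFR2 and FGF19. In Huh7 cells it was FGFR4, FGFR3, KLB, FGF19 and FGFR2, so that FGF19 and FGFR2 changed places. KLB stood above FGFR3 only in the compound #57 libraries of Hep3B and Huh7. These orders rest on 1 library each.

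The differences between lines were tested in limma with Benjamini-Hochberg adjustment over all 11548 genes, with treatment and cell line as terms. The 4 treatments of a line stand in as replicates there. All 5 genes were lower in MHCC97H than in Hep3B and than in Huh7, where 38.6% and 36.4% of all genes were called lower. For KLB, the log2 difference from Hep3B was -7.63 ± 0.25 (SE, limma adjusted p = 4.19e-09), and for FGFR3 it was -3.63 ± 0.13 (adjusted p = 6.66e-09). FGFR4 differed least, with -3.00 ± 0.19 (limma adjusted p = 5.42e-07) from Hep3B and -3.32 ± 0.19 (adjusted p = 2.07e-07) from Huh7. The fitted values of FGF19 and FGFR2 rest on libraries with 0 reads, and the bounds above stand in their place. FGF19, FGFR2 and KLB had mean log2 values of 0.21, 0 and 3.63 in MHCC97H. These lie under 4.65, the lowest mean of any gene in the table over the 12 libraries. The 3 genes are in the table only through the other lines, so a lower mean in MHCC97H than over those lines was fixed in advance. Every MHCC97H library lay below every library of the other lines for all 5 genes, as it did for 19.9% of all genes.

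Between Huh7 and Hep3B, 2 of the 5 genes were called, in opposite directions, where 55.1% of all genes were called. FGFR2 was lower in Huh7 by a log2 difference of -3.62 ± 0.27 (limma adjusted p = 4.19e-06) and FGF19 was higher by 1.35 ± 0.36 (adjusted p = 0.00989). The libraries of these lines did not overlap for FGF19 and FGFR2, as for 39.1% of all genes. The FGF19 call was lost without the untreated libraries (1.08, limma adjusted p = 0.0551) and without the compound #57 libraries (1.24, adjusted p = 0.0542). KLB (0.28 ± 0.25), FGFR3 (0.19 ± 0.13) and FGFR4 (0.32 ± 0.19) were not called (limma adjusted p = 0.376, 0.232 and 0.182), and FGFR4 was called higher in Huh7 only without the AZD8055 libraries (0.47, adjusted p = 0.0433).

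AZD8055 addresses what mTOR inhibition does to the receptors that feed SHP2. FGFR3 was higher with AZD8055 in 3 of 3 lines, a pattern that 28.4% of all genes shared. Its log2-fold change, the difference of log2 values between 1 library and another, was 0.55 in Hep3B, 0.45 in Huh7 and 0.35 in MHCC97H. The 95% counting intervals, Clopper-Pearson intervals of the read ratio, ran from 0.48 to 0.62, from 0.39 to 0.50 and from 0.13 to 0.57. They cover counting error only, and each compares 1 library with 1 other rather than conditions. Over the lines the change was 0.45 ± 0.15 (SE), which did not pass the test (limma adjusted p = 0.0964). The study chose FGFR3 as an induced receptor on these same libraries, so that its direction here is not independent evidence. From these same libraries the study also reports an enrichment of a custom set of receptor kinase genes. Its further support for the receptor increase is qRT-PCR, with SNU398 as a further line and FGFR3 among the primers, and phospho-receptor arrays. The qRT-PCR and array measurements are not part of the data used here.

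In Huh7, FGF19 was 2.34-fold lower with AZD8055 (716 reads against 230), with a log2-fold change of -1.23 and an interval from -1.45 to -1.01, and 2.52% of all genes were at least 2-fold lower in that pair of libraries. In Hep3B the change was 0.31, and its interval from -0.05 to 0.69 includes no change. FGFR4 was lower in Huh7 (-0.53) and MHCC97H (-0.59) and higher in Hep3B (0.23), each interval keeping to one side of 0. KLB was lower in Huh7 (-0.40), with -0.01 in Hep3B, and the MHCC97H value of -0.86 rests on 11 and 6 reads, with an interval from -2.72 to 0.56. FGFR2 had -0.26 in Hep3B and 0.30 in Huh7, where 47 and 44 reads were found. Of the 5 genes, 0 were called by limma at an adjusted p under 0.05 and 0 by voom, where 2.96% of all genes were called by limma. At an unadjusted p under 0.05 there was 1, FGFR3, beside 27.4% of all genes.

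The AZD8055 effect on FGF19 was compared between lines by a moderated F test of the interaction terms in limma, which leaves 2 residual degrees of freedom. The adjusted p was 0.139 for FGF19, and the test passed with voom on the whole reads (adjusted p = 0.0469). MHCC97H, with 0 or 1 read of FGF19 per library, could show no fall, so that its part in the test is set by the floor. The FGF19 result thus does not compare 3 measured effects. It was 0.0825 for KLB, 0.106 for FGFR4, 0.300 for FGFR3 and 0.482 for FGFR2 with limma. Of all genes, 7.31% were called in this test.

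The bile acid genes and the neighbours of FGF19 on chromosome 11 were read beside it. NR1H4, which encodes FXR, had 403 normalised reads in untreated Hep3B, 99.0 with AZD8055, 232 with compound #57 and 55.1 with the combination. Huh7 had 684, 168, 453 and 280. NR1H4 was thus lowest with AZD8055 in Huh7 and with the combination in Hep3B. With AZD8055 alone, its log2-fold change was -2.02 in both lines, beside -1.23 for FGF19 in Huh7 and 0.31 in Hep3B. In MHCC97H, NR1H4 had 24 to 40 reads, lowest in untreated cells, and its AZD8055 effect differed between lines (limma interaction F, adjusted p = 0.0361).

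CCND1, the gene of cyclin D1, lies 43.8 kb from FGF19. In Huh7 it had 3938 normalised reads untreated, 9783 with AZD8055, 4245 with compound #57 and 5929 with the combination. The same libraries that were high for CCND1 were thus low for FGF19, and the log2-fold change with AZD8055 was 1.31 for CCND1 and -1.23 for FGF19. In Hep3B, CCND1 had 1940, 1810, 1233 and 1017, and in MHCC97H between 2749 and 3178. The AZD8055 effect on CCND1 differed between lines (limma interaction F, adjusted p = 0.0368). Of the 10 listed neighbours, 6 were in the table (MYEOV, CCND1, FADD, PPFIA1, CTTN and SHANK2), and 0 were called in any treatment contrast.

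**Figure D2:**
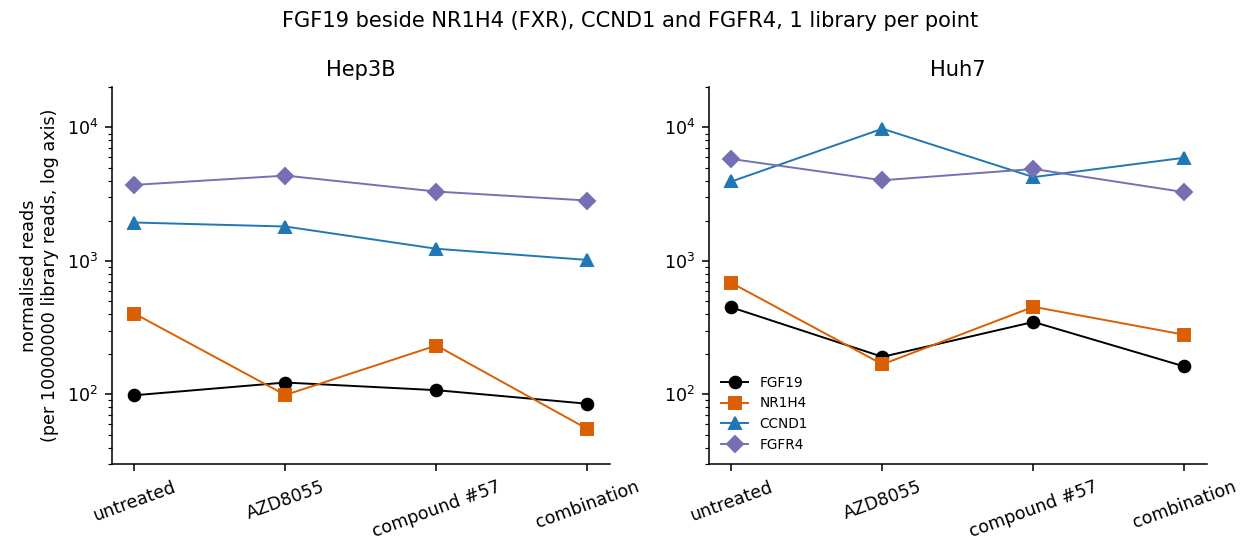
Normalised reads (per 10000000 library reads, log axis) of FGF19, NR1H4, CCND1 and FGFR4 in the 4 treatments of Hep3B and Huh7, with 1 library per point and lines that only join the points of a gene. In Huh7, FGF19 goes from 449 untreated to 191 with AZD8055 while CCND1 goes from 3938 to 9783, whereas in Hep3B FGF19 stays between 85.1 and 123.

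Compound #57 addresses what SHP2 inhibition does to the same genes. KLB was higher with it in 3 of 3 lines, a pattern that 30.6% of all genes shared. It was 3.80-fold higher in Hep3B (1489 against 8288 reads), 1.63-fold higher in Huh7 (4566 against 6314 reads) and 3.45-fold higher in MHCC97H (11 against 36 reads). The log2-fold changes were 1.92, with an interval from 1.85 to 2.01, 0.70 (0.65 to 0.76) and 1.79 (0.90 to 3.03). At least 2-fold higher were 8.96% of all genes in Hep3B and 3.12% in MHCC97H. Over the lines, KLB differed by 1.47 ± 0.29 (SE, unadjusted p = 5.04e-04), which did not pass (limma adjusted p = 0.0912, between 0.0567 and 0.9996 over the alternatives). The test called 0.00866% of all genes here, a single gene.

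The same direction was seen on top of AZD8055. With the combination against AZD8055, KLB was higher by a log2-fold change of 1.35 in Hep3B, 0.33 in Huh7 and 1.50 in MHCC97H, 3 of 3 lines as for 23.7% of all genes, with 1.06 ± 0.29 over the lines (limma adjusted p = 0.205). This comparison shares no library with that of compound #57 against untreated cells. The MHCC97H value of 1.50 rests on 6 against 17 reads, with an interval from 0.30 to 3.34. It was 0.74 when 10 rather than 1 was added before log2. Against compound #57 alone, the combination was lower in 3 of 3 lines (21.8% of all genes), at -0.58, -0.77 and -1.14, or -0.83 ± 0.29 over the lines (limma adjusted p = 0.118). That value passed only when the fit was limited to the libraries compared (adjusted p = 0.0469). The reference is the same compound #57 libraries in which KLB was highest, so this fall is not independent of the rise with compound #57. In MHCC97H, the -1.14 rests on 36 against 17 reads, with an interval from -2.13 to -0.33, and was -0.81 with 10 added.

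The size of the KLB difference with compound #57 depended on the cell line (limma interaction F, adjusted p = 0.0122), where 6.81% of all genes were called. The same test called FGFR4 (adjusted p = 0.0483). FGFR4 was lower with compound #57 in Hep3B, at -0.17 (-0.23 to -0.11) without and -0.62 (-0.68 to -0.56) with AZD8055. In Huh7 it was lower at -0.25 (-0.29 to -0.20) and -0.30 (-0.36 to -0.23). In MHCC97H it was higher at 0.40 (0.24 to 0.56) and 0.44 (0.25 to 0.62). The FGFR4 call was lost when libraries were centred on their medians (adjusted p = 0.0608) and with voom (adjusted p = 0.0537). For FGFR4, the line that stands apart was exposed for 24 h and the others for 48 h, which cannot be told apart from the line itself. For KLB, the counting intervals were 1.85 to 2.01 in Hep3B and 0.65 to 0.76 in Huh7, both exposed for 48 h. They cover counting error only, and the cause of the difference was not tested.

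**Figure D3:**
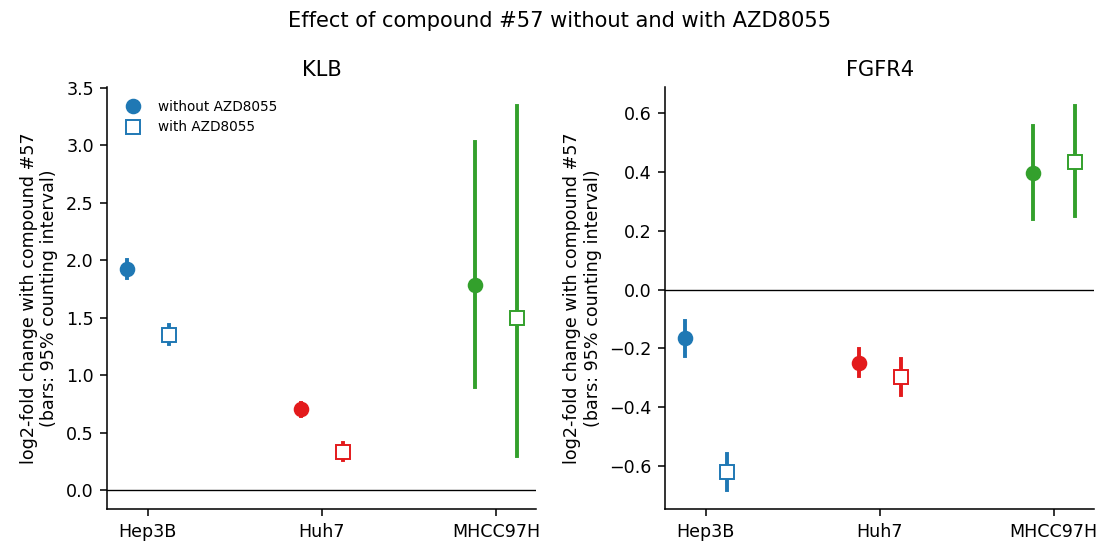
Log2-fold change of KLB and FGFR4 with compound #57 in each cell line, without AZD8055 (filled circles) and with it (open squares), where bars are 95% counting intervals of 1 library against 1 library. All 6 KLB values are above 0, from 0.33 to 1.92, and FGFR4 is above 0 only in MHCC97H.

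For FGFR3, the log2-fold change with compound #57 alone was 0.13 in Hep3B, -0.34 in Huh7 and -0.08 in MHCC97H. On top of AZD8055 it was lower in 3 of 3 lines, at -0.35, -0.32 and -0.75, a direction that 16.3% of all genes shared. Over the lines this was -0.48 ± 0.15 (limma adjusted p = 0.240). The reference here is the same AZD8055 libraries in which FGFR3 was highest, so this fall is not independent of the rise with AZD8055. FGFR2 was lower with compound #57 in Hep3B at -0.72 (-0.89 to -0.55), and the 47 and 37 reads in Huh7 give an interval from -0.77 to 0.54. FGF19 had 0.13 (-0.23 to 0.49) in Hep3B and -0.36 (-0.53 to -0.19) in Huh7. Of the 5 genes, limma and voom called 0 with compound #57 against untreated cells and 0 with the combination against AZD8055, where limma called 0.0% of all genes. At an unadjusted p under 0.05 there were 1 (KLB) and 2 (KLB and FGFR3), beside 21.7% and 14.5% of all genes.

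The combination left the 5 genes at different places. Against untreated cells, FGFR4 was lower in 3 of 3 lines, at -0.39 in Hep3B, -0.83 in Huh7 and -0.15 in MHCC97H, where 25.6% of all genes were lower in all lines. The MHCC97H interval, from -0.32 to 0.02, includes 0, and over the lines the change was -0.46 ± 0.22 (limma adjusted p = 0.135). FGF19 in Huh7 was 2.76-fold lower than untreated (-1.47, interval -1.71 to -1.24), where 6.46% of all genes were at least 2-fold lower, and -0.24 (-0.53 to 0.04) from AZD8055 alone. In Hep3B, FGF19 was -0.21 (-0.62 to 0.19) from untreated and -0.52 (-0.90 to -0.16) from AZD8055. KLB remained 2.54-fold higher than untreated in Hep3B (1.35), as 11.6% of all genes were at least 2-fold, and was near the untreated level in Huh7 (-0.07). FGFR2 was 2.12-fold higher in Huh7, on 74 against 47 reads (1.09, interval 0.57 to 1.67), beside -0.22 in Hep3B.

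FGFR3, which was higher with AZD8055, was 0.20 and 0.12 above untreated with the combination in Hep3B and Huh7 and -0.40 from it in MHCC97H. Of the 5 genes, limma and voom called 0 against untreated cells, where limma called 36.0% of all genes. At an unadjusted p under 0.05 there were 0, beside 47.6% of all genes. Against compound #57 alone both called 0, where limma called 4.18% of all genes. Here 1, KLB, had an unadjusted p under 0.05, beside 25.3% of all genes.

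**Figure D4:**
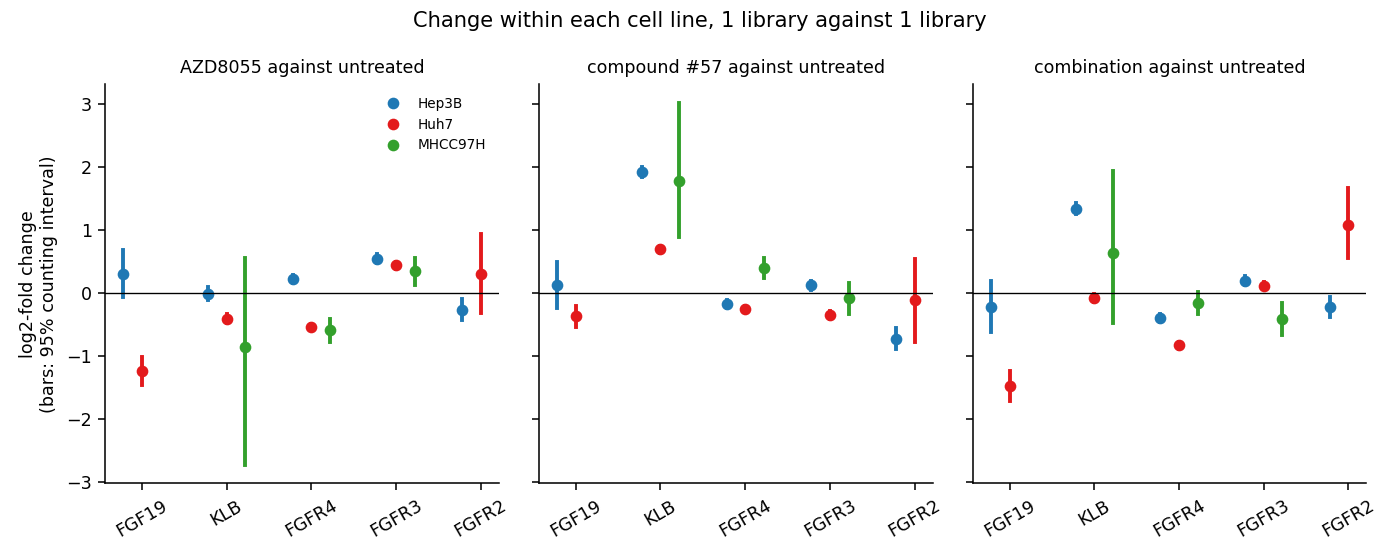
Log2-fold change of each gene against untreated cells with AZD8055, compound #57 and the combination, coloured by cell line, where bars are 95% counting intervals of 1 library against 1 library. FGF19 and FGFR2 have no point in MHCC97H because of their 0 reads, and the KLB points with compound #57 lie at 0.70, 1.79 and 1.92.

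The rest of the pathway was read from lists of 104 genes, of which 70 were in the table. Downstream of the receptors, the genes that ERK induces were low with compound #57. All 7 measured transcription factors of the ERK response were lower in all 3 lines, and so were 6 of 7 feedback inhibitors, where 19.7% of all genes were. MYC is counted as lower in MHCC97H on 2077.43 normalised reads untreated against 2076.55 with compound #57. The medians over the lines were -2.22 and -1.66, against 0.05 over all genes. By line they were -3.60 and -2.56 in Hep3B, -2.23 and -2.05 in Huh7, and only -0.76 and -0.56 in MHCC97H. Limma called 0 of these 14 and 0 of the 70 in this contrast, with 30 of the 70 (42.9%, against 21.7% of all genes) at an unadjusted p under 0.05, and voom called 2. Without the MHCC97H libraries, 15 of the 70 were called. The shares of all genes called in that fit and by voom are not given here, so these counts cannot be set against them.

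DUSP6, the phosphatase that switches ERK off, had 924, 609, 11.5 and 64.8 normalised reads in Hep3B (untreated, AZD8055, compound #57, combination). Huh7 had 1421, 1295, 318 and 292, and MHCC97H 1767, 3519, 537 and 745. The compound #57 libraries and the combination libraries were below the other libraries in each line. SPRY4, a Sprouty inhibitor of receptor signalling, went from 530 to 1.92 normalised reads in Hep3B with compound #57 and from 343 to 191 in MHCC97H. ETV4, an ETS factor induced by FGF signals, went from 401 to 8.96 in Hep3B, from 1134 to 190 in Huh7 and from 473 to 130 in MHCC97H. KLB, by contrast, was highest with compound #57 alone in each line.

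With the combination against untreated cells, limma called 17 of the 70 pathway genes higher and 11 lower, 40% of them, near the 36.0% of all genes. Of all genes, 20.9% were called higher and 15.1% lower, and the counts of the lists in this contrast stand beside these shares. Without the Huh7 libraries 0 were called, without the Hep3B libraries 15, and without the cell line term 0. The shares of all genes called in these 3 fits are not given here. Among the 7 ERK factors, 4 fell (15.1% of all genes), ETV1 (-2.29), ETV4 (-2.67), ETV5 (-2.49) and EGR1 (-3.51), with limma adjusted p-values between 0.00375 and 0.0365. Of the 7 feedback inhibitors, DUSP6 (-2.45), SPRY1 (-2.18) and SPRED2 (-0.72) fell, and IL17RD (2.16), which restrains FGF signalling at the membrane, rose, on 1 read in untreated MHCC97H cells. SPRY4 was at least 2-fold lower in all lines but did not pass (-2.65, limma adjusted p = 0.0831).

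Nearer the receptors, 8 of 24 adaptors and relays rose with the combination (20.9% of all genes), by log2-fold changes of 0.42 to 1.10, among them the docking protein gene GAB1 (1.10), the exchange factor genes SOS1 (1.09) and SOS2 (0.996) and FRS3 (1.10), a relative of FRS2. The others were PIK3CA, BRAF, STAT3 and PLCG1. CRKL (-0.50) and GRB2 (-0.40) fell. FRS2 itself, the adaptor bound by the receptors, had 0.27 ± 0.13 (limma adjusted p = 0.125), and PTPN11, the gene of SHP2, had -0.07 ± 0.14 (adjusted p = 0.706). The median of the list was 0.09, as that of all genes.

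Heparan sulfate, which most FGFs need to bind their receptors, is carried by glypicans and syndecans. Of 16 measured cofactor genes, 6 rose with the combination, as 20.9% of all genes did, GPC6 (1.59), GPC4 (1.97), SDC3 (0.97), SDC4 (1.24), NDST1 (0.76) and SULF2 (0.73), and SDC1 fell (-1.16). GPC4 had 0 reads in all MHCC97H libraries, so that its fitted change rests on the other lines, and SULF2 had 0 or 1 read in each Hep3B library, so that the part of Hep3B in its fitted change rests on 0 against 1 read. GPC6 was the only pathway gene called with AZD8055 (1.05, limma adjusted p = 0.0305) and with the combination against compound #57 (0.84, adjusted p = 0.0366), with 19 and 7 of the 70 (27.1% and 10%) at an unadjusted p under 0.05, against 27.4% and 25.3% of all genes. Both calls were lost without the Hep3B or the Huh7 libraries. Voom called 2 of the 70 in each contrast, and its share of all genes is not given here. With the combination against AZD8055, limma called 0 of the 70, with 21 (30%, against 14.5% of all genes) at an unadjusted p under 0.05.

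On the bile acid side, 8 of 15 listed genes were in the table. With the combination, BAAT, the enzyme that conjugates bile acids to amino acids, rose by 3.08 (limma adjusted p = 0.00525). Its untreated libraries held few reads, with 7 against 135 in Hep3B, 16 against 73 in Huh7 and 51 against 353 in MHCC97H. NR5A2, the nuclear receptor LRH-1, rose by 1.84 (adjusted p = 0.00452). SLC51B, a subunit of the basolateral bile acid exporter, fell by 2.53 on the log2 scale (adjusted p = 0.0243). It had 65 reads untreated against 5 with the combination in Hep3B, 268 against 59 in Huh7 and 81 against 15 in MHCC97H. NR5A2 had 632, 582, 1975 and 1900 normalised reads in Hep3B and 897, 1452, 1633 and 2123 in Huh7, and 1 to 13 reads in MHCC97H. In Hep3B it was thus high in the same libraries as KLB. NR0B2, the gene of the FXR-induced repressor SHP, which is unrelated to the phosphatase SHP2, had 262, 267, 64.0 and 167 in Hep3B, 65.2, 165, 30.2 and 70.6 in Huh7 and 0 to 2 reads in MHCC97H. Its combination contrast was not called (-0.63, limma adjusted p = 0.405).

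Of the other FGF ligands, 1 of 17 listed was in the table, FGF2, with 253, 151, 223 and 137 normalised reads in MHCC97H and between 22.6 and 51.2 in the other lines. FGF2, which does not need beta-Klotho, was thus higher in the line with 1 read of FGF19. FGFRL1, a decoy receptor without a kinase domain, had between 693 and 1499 normalised reads in all lines. Neither was called in any treatment contrast. A ligand missing from the table need not be without reads.

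For each gene, the most alike patterns were sought by Pearson's r of log2 values over the 12 libraries after the mean of each line was removed, among the 11243 genes with reads in all libraries. For KLB these were DIS3L (0.97), the prolactin receptor gene PRLR (0.95) and the imprinted gene PEG10 (0.95). FGF19 was most like PIGT (0.96), SOD2 (0.95) and LYSMD4 (0.90). FGFR4 was most like ALG6 (0.96), MRPL57 (0.95) and TM9SF1 (0.93), FGFR3 like SLC35B2 (0.88), JAG1 (0.87) and FAM86EP (0.87), and FGFR2 like C3orf17 (0.95), CCDC22 (0.95) and MRRF (0.94). Among the 5 genes themselves, r was highest for FGF19 and FGFR4 (0.54) and lowest for FGF19 and FGFR2 (-0.64). The points share treatments, and FGFR2, with 0 reads in MHCC97H, has points that vary in Hep3B and Huh7 only. For FGF19, the single read in MHCC97H enters these values as an SD of 0.43 on the log2 scale, above the 0.22 of Hep3B and below the 0.70 of Huh7. For KLB, the SD was largest in MHCC97H, at 1.11 on 6 to 36 reads, against 0.98 in Hep3B and 0.46 in Huh7.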

How the data were processed

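RNA of 3 HCC cell lines under 4 treatments was sequenced from polyA+ stranded libraries, 1 per condition, and per the labels refers to hg38. The authors deposited 1 log2 value per gene and library, and the aligner, counting and normalization are not given in the sources used here. The values behave as reads per 10000000 reads of the library, to which 1 was added before log2, and a gene without reads carries 0.001, taken here as 0. Whole reads were recovered for at least 99.99% of values (tolerance 0.02 reads).

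Log2-fold changes within a line are differences between 2 libraries, with the 95% Clopper-Pearson interval of the read ratio and no p-value. A limit of 3 reads per library was set for counts of 0. Across lines, limma 3.58.1 (lmFit, eBayes with trend, R 4.3.3) was fitted to all 12 libraries and 11548 genes with treatment and cell line as terms (6 residual degrees of freedom, Benjamini-Hochberg adjustment, calls under 0.05). The cell line pairs the libraries. Libraries of different lines and treatments stand in for replicates. The p-values rest on the spread between these libraries that the terms of the fit leave, and no spread between replicate cultures was estimated. Genes were named if they were among the 5 genes, if a pathway gene was called or at least 2-fold changed in the same direction in all lines with AZD8055 or the combination, if a neighbour of FGF19, or if among the 3 most alike patterns. Others (among them NR1H4, NR0B2, FGF2, FGFRL1, FRS2 and PTPN11), the motifs and the sequences shown were chosen after values were seen. The members, lists and tests were chosen with earlier results of these data known. Of the 5 genes, 4 were in the RefSeq promoter table. Of the rows, 18 had date-like names and 4 symbols stood on 2 rows each. The alternatives were adding 10 rather than 1, testing only the most abundant 75% of genes, median-centred libraries, no cell line term, each line or treatment left out, only the libraries compared, and voom. Calculations were tested on simulated data. 1 other gene is not reported here.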

Additional observations from a re-analysis of the deposited data

Results flagged for a closer look

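The effect of compound #57 differed between the cell lines for KLB (limma interaction F test, adjusted p = 0.0122), which was higher with it in 3 of 3 lines, by 1.92 in Hep3B, 0.70 in Huh7 and 1.79 in MHCC97H on the log2 scale. It also differed for FGFR4 (adjusted p = 0.0483), with -0.17, -0.25 and 0.40 in the same order. The MHCC97H value of KLB rests on 11 and 36 reads. For FGFR4, the line with the opposite sign, MHCC97H, was collected at 24 h and the others at 48 h, and time and line cannot be told apart. For KLB, the counting intervals were 1.85 to 2.01 in Hep3B and 0.65 to 0.76 in Huh7, both collected at 48 h. They cover counting error only, and the cause of the difference was not tested.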

How the results depend on the processing

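Of the alternatives tried, the KLB difference with compound #57 against untreated cells kept its direction in all and passed the threshold in none (1.24 to 1.86 with a line left out). Centring the libraries shifted the median over all genes by at most 0.097. No KLB change reversed.

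The replicate block is the cell line. Without it the adjusted p of KLB with compound #57 was 0.9996, and the FGF pathway genes called were 0 with AZD8055, 0 with the combination and 0 with the combination against compound #57. The block changed no call of the 5 genes.

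With a cell line left out, FGF19 ranged from -0.61 to 0.16 with AZD8055, from -0.18 to 0.063 with compound #57, from -0.84 to 0.32 with the combination, from -0.38 to 0.31 for the combination against AZD8055 and from -0.72 to 0.26 against compound #57, and without Huh7 it reversed in all of these but the combination against AZD8055, which reversed without MHCC97H. FGFR2 ranged from -0.13 to 0.15 with AZD8055 and from -0.11 to 0.54 with the combination. FGFR3 ranged from -0.21 to 0.024 with compound #57, from -0.14 to 0.16 with the combination and from -0.13 to 0.27 for the combination against compound #57. FGFR4 ranged from -0.21 to 0.12 with compound #57 (0.075 without Hep3B) and from -0.46 to 0.070 for the combination against AZD8055. Pathway genes called ranged from 0 to 1 with AZD8055, 0 to 15 with compound #57 (15 without MHCC97H), 0 to 34 with the combination and 0 to 3 for the combination against compound #57. The shares of all genes called in these and the other alternative fits are not given here, so the counts cannot be set against them.

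FGFR2 with AZD8055 reversed to -0.0053 with 10 added, -0.017 with centring and -0.14 with voom. FGF19 for the combination against AZD8055 reversed to -0.20, -0.0078 and -0.11, and FGFR3 with the combination to 0.021 with voom. With voom, pathway genes called were 2 with AZD8055, 2 with compound #57 and 2 for the combination against compound #57. With only the libraries compared they were 0 with AZD8055 and 17 with the combination, and 1 of the 5 genes, KLB, was called for the combination against compound #57 (-0.83, limma adjusted p = 0.0469). The AZD8055 effect on FGF19 differed between lines with voom (adjusted p = 0.0469), in a test where MHCC97H could show no fall. The FGFR4 difference with compound #57 was lost with centring (adjusted p = 0.0608) and voom (0.0537). Fewer libraries enter the fits that leave a line out. In MHCC97H, the single FGF19 read, in the combination library, lies 0.86 above untreated on the log2 scale, and 0.11 with 10 added. It is part of every FGF19 value of the combination that includes MHCC97H. The cause of the reversals was not tested.

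Depth limits KLB in MHCC97H, with 6 to 36 reads, and FGFR2 in Huh7, with 37 to 74. FGF19 and FGFR2 in MHCC97H were not detectable beyond 1 read at this depth.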
